A study of Caenorhabditis elegans with 4 samples.

Results

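Collagen chains of *C. elegans* are modified in the endoplasmic reticulum, secreted, trimmed and, in the cuticle, cross-linked, and 10 genes of collagen-processing and cross-linking enzymes and their partners are described here in remofuscin-treated worms and the negative control (NC). They were chosen by gene name, as the probes whose identifier maps to *dpy-18*, *phy-2*, *pdi-2*, *let-268*, *dpy-31*, *bli-4*, *bli-5*, *bli-3*, *mlt-7* or *tsp-15*. They are 10 of the 19814 genes that the arrays name and 10 of the 14756 genes that were tested. In no gene of the 10 did remofuscin-treated worms and NC differ past the limits used, and the fitted log2 differences lay between -0.53 and 0.42.

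Whole wild-type worms (Bristol strain N2) were collected after 14 days at 25 °C on plates seeded with *E. coli* OP50. The plates held either 200 µM remofuscin, also called soraprazan, which is known for clearing lipofuscin from retinal pigment epithelium, or 0 µM remofuscin (NC). Each group has 2 arrays, 1 from each of 2 experiments, which are told apart here by the number that opens each sample title. Each experiment thus holds 1 array of remofuscin-treated worms and 1 NC array. Treatment began on young adults grown from eggs released by bleaching. DMSO was the solvent of remofuscin in the lifespan assays, whose plates also held FUdR, a drug that keeps worms from producing progeny. Whether either was on the plates of the array experiment is not given in the sources used here. Because RNA came from pools of whole worms, fewer cells of a type and less RNA per cell cannot be told apart.

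Proline residues of a collagen chain are hydroxylated in the endoplasmic reticulum, which lets the chains wind into a stable triple helix. Propeptides are then cut off by proteases, and the trimmed trimers are joined in the cuticle through tyrosine cross-links that need hydrogen peroxide and a peroxidase. Loss of several of these enzymes is known for dumpy, blistered or moulting-defective worms. Those that act on the cuticle are used in the hypodermis above all while a new cuticle is built.

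Between 63.3% and 65.1% of the spots were well above background on the arrays of remofuscin-treated worms, against 66.2% and 66.6% on the NC arrays, and 0 spots were saturated. Values are scaled signals, the spot intensity after each array was brought to the same 75th percentile (692). Since each probe binds with its own strength, the signal of one gene was not set against that of another. Each gene was read from its brightest probe, and all 10 of these probes were well above background on all 4 arrays. Differences are log2 values of remofuscin minus NC with their standard error (SE) and 95% interval from a limma fit over all 29094 tested probes. The methods set 2 limits for a changed gene, an unadjusted p below 0.05 and a change of 2-fold or more in either direction, and a gene that met both was called past the limits. The limma adjusted p was 1.00 for each of the 10 genes, and an exact permutation test of 2 arrays against 2 cannot go below 0.333.

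The hydroxylation step was read from 4 genes. *dpy-18* encodes a catalytic alpha subunit of prolyl 4-hydroxylase. Its signal was 1219 in experiment 1 and 1809 in experiment 2 in remofuscin-treated worms, against 1355 and 1974 in NC. Within each experiment the treated worms were slightly lower, while both arrays of experiment 2 stood above both of experiment 1, so that the groups overlapped. The fitted log2 difference was -0.14 (SE 0.42, 95% interval -1.09 to 0.82).

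*phy-2* encodes the other alpha subunit, which in the worm acts alongside DPY-18. Its signal was 284 and 224 in remofuscin-treated worms in experiments 1 and 2, against 203 and 209 in NC. Both treated arrays were above both NC arrays, most clearly in experiment 1, where the log2 difference was 0.48, against 0.098 in experiment 2. The fitted difference of 0.29 (SE 0.38, 95% interval -0.58 to 1.16) was smaller than its standard error, and *phy-2* was not past the limits.

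*pdi-2* encodes the protein disulfide isomerase that serves as the beta subunit of the prolyl 4-hydroxylase complex. Its signal was 27526 and 35463 in remofuscin-treated worms, against 30107 and 41997 in NC. As for *dpy-18*, the NC array of experiment 2 was the highest of the 4, and the treated worms were lower within each experiment, by log2 differences of -0.13 and -0.24, while the groups overlapped. The fitted difference was -0.19 (SE 0.40, 95% interval -1.10 to 0.72). On the NC array of experiment 2 its brightest spots carry a mark for an uneven local background, and with such spots left out on all arrays the difference was 0.053. That value rests on the other NC array alone.

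*let-268* encodes a lysyl hydroxylase (procollagen lysine dioxygenase), known for the processing of type IV collagen of basement membranes rather than of the cuticle. Its signal was 337 and 326 in remofuscin-treated worms, against 340 and 229 in NC. Only the NC array of experiment 2 stood apart, at the low end, while the other 3 lay between 326 and 340. The log2 difference was accordingly -0.012 in experiment 1 and 0.51 in experiment 2, and the fitted value was 0.25 (SE 0.39, 95% interval -0.66 to 1.15).

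**Figure D1:**
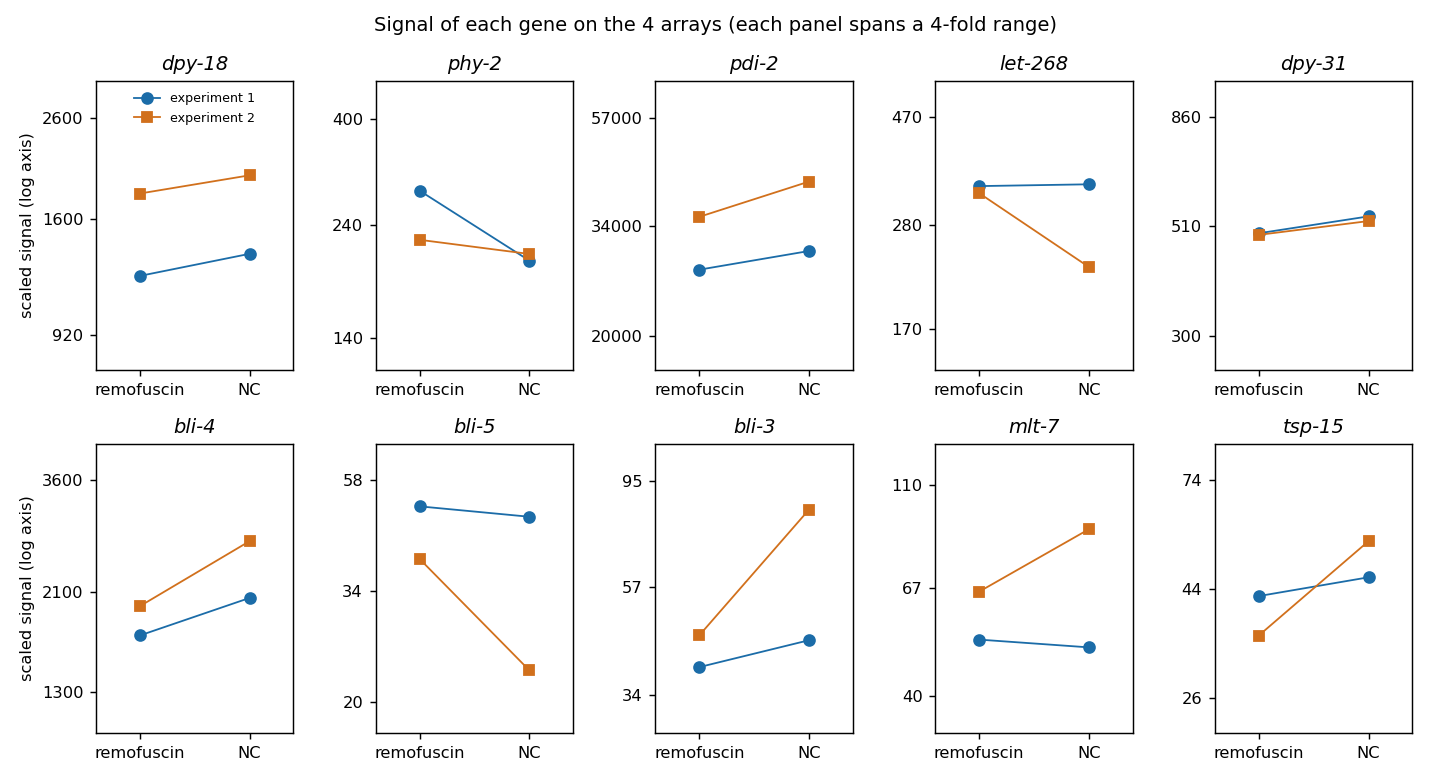
Scaled signal (log axis, each panel spanning a 4-fold range around its own values) of the 10 genes in remofuscin-treated worms and NC, with circles for experiment 1, squares for experiment 2 and a line joining the 2 arrays of an experiment. The slopes are small for *dpy-18* (1219 and 1809 against 1355 and 1974) and *dpy-31* (492 and 488 against 533 and 522), and the NC array of experiment 2 stands apart for *bli-3* (82.8) and *bli-5* (23.3).

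Proteolytic trimming was read from 3 genes. *dpy-31* encodes an astacin metalloprotease that removes C-terminal propeptides of collagens. Its signal was 492 and 488 in remofuscin-treated worms, against 533 and 522 in NC. The 4 values were the closest together of the 10 genes on the log2 scale, with both treated arrays just below both NC arrays. The fitted difference was -0.11 (SE 0.37, 95% interval -0.95 to 0.74), or a fold of 0.929 with an interval of 0.517 to 1.67. This was the only interval of the 10 that lay between a 2-fold fall and a 2-fold rise, as did those of 16.9% of all tested genes.

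*bli-4* encodes a kexin-like proprotein convertase, which cuts collagens on the N-terminal side. Its signal was 1708 and 1965 in remofuscin-treated worms, against 2045 and 2684 in NC. Both treated arrays were below both NC arrays, and the log2 difference of experiment 1 (-0.26) was smaller than that of experiment 2 (-0.45). The fitted difference was -0.35 (SE 0.38, 95% interval -1.24 to 0.53), a fold of 0.782 that was not past the limits.

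*bli-5* encodes a protein with a Kunitz-type protease inhibitor domain. Its signal was 51.0 and 39.7 in remofuscin-treated worms, against 48.6 and 23.3 in NC. The NC array of experiment 2 was the lowest of the 4, and the treated arrays lay on either side of the NC array of experiment 1. The log2 difference was 0.072 in experiment 1 and 0.77 in experiment 2, and the fitted value of 0.42 (SE 0.46, 95% interval -0.64 to 1.48) was the highest of the 10. The 2 NC arrays differed from each other by -1.06 (experiment 2 minus experiment 1), more than the groups did.

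The cross-linking step was read from 3 genes, and all 3 had negative fitted differences, as had 7359 of the 14756 tested genes. *bli-3* encodes a dual oxidase, the source of the hydrogen peroxide used for tyrosine cross-links. Its signal was 38.9 and 45.3 in remofuscin-treated worms, against 44.3 and 82.8 in NC. The NC array of experiment 2 was well above the other 3, which lay close together, and the treated array of experiment 2 was above the NC array of experiment 1. The log2 difference was -0.19 in experiment 1 and -0.87 in experiment 2, and the fitted value of -0.53 (SE 0.43, 95% interval -1.52 to 0.47) was the lowest of the 10. It was -0.98 without the NC array of experiment 1 and -0.076 without that of experiment 2, and neither was past the limits.

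*mlt-7* encodes a heme peroxidase that uses this hydrogen peroxide. Its signal was 52.4 and 66.0 in remofuscin-treated worms, against 50.5 and 89.0 in NC. The NC arrays were both the lowest and the highest of the 4, and the sign of the log2 difference changed between the experiments, with 0.054 in experiment 1 and -0.43 in experiment 2. The fitted value was -0.19 (SE 0.43, 95% interval -1.17 to 0.79).

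*tsp-15* encodes a tetraspanin that is known to form a complex with the dual oxidase. Its signal was 42.4 and 35.1 in remofuscin-treated worms, against 46.5 and 55.2 in NC. Both treated arrays were below both NC arrays, but the log2 difference was small in experiment 1 (-0.13) and larger in experiment 2 (-0.65). The fitted difference was -0.39 (SE 0.38, 95% interval -1.26 to 0.48). The probes of *bli-5*, *bli-3*, *mlt-7* and *tsp-15* were dim. On the array where each was dimmest against background, its unscaled signal was 1.99, 2.62, 3.75 and 2.03 times that of the dimmest probe called well above background.

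**Figure D2:**
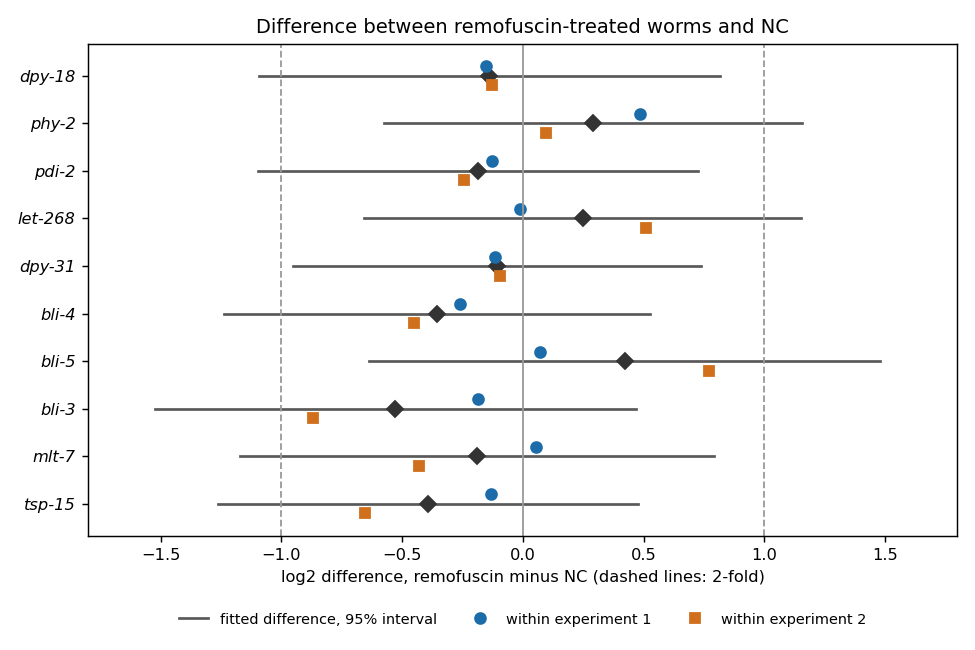
Log2 difference of remofuscin minus NC for the 10 genes, with a diamond for the fitted value, a bar for its 95% interval, a circle for experiment 1 and a square for experiment 2, and dashed lines at 2-fold. Every interval crosses 0, and only that of *dpy-31* (-0.95 to 0.74) lies wholly between the dashed lines.

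Set side by side, 0 of the 10 genes were higher and 0 were lower past the limits, against 2.23% of all tested genes higher and 0.895% lower. At an unadjusted limma p under 0.05 alone, the count was also 0 of 10, against 3.55% of all tested genes. At a limma adjusted p under 0.05 it was 0 of 10, against 0.474% of all tested genes higher and 0.0745% lower. With the experiment as a block it was 0 of 10 again, against 3.72% higher and 1.89% lower. A count of 0 among 10 genes is close to these shares, and by itself it sets the 10 genes apart from no others.

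The median of the 10 fitted log2 differences was -0.16, beside 0.0012 over all tested genes. All 10 values lay within the middle 90% of tested genes (-0.54 to 0.67), and 4 lay within the middle 50% (-0.21 to 0.22). By step, the median was 0.055 over the 4 hydroxylation genes, -0.11 over the 3 genes of proteolysis and -0.39 over the 3 genes of cross-linking. Cross-linking genes had a median of -0.13 in experiment 1 and -0.65 in experiment 2. With another background correction (normexp), the cross-linking genes were at -0.22 (*bli-3*), -0.085 (*mlt-7*) and -0.11 (*tsp-15*). The genes of proteolysis were then at -0.12 (*dpy-31*), -0.44 (*bli-4*) and 0.16 (*bli-5*), and *bli-4* was the lowest of the 10. No difference between the steps was tested.

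Intervals of 7 genes lay below a 2-fold rise, and those of 4 lay above a 2-fold fall. A 2-fold lower level thus lay inside the interval for *dpy-18*, *pdi-2*, *bli-4*, *bli-3*, *mlt-7* and *tsp-15*, and a 2-fold higher one for *phy-2*, *let-268* and *bli-5*. These are the sizes that the fit by group, with 2 arrays each and without the pairing by experiment, did not resolve. With the experiment as a block the SE was 0.27 for each gene, from 1 pooled spread, and no intervals of that fit are given here.

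The experiments agreed in sign for 8 of the 10 genes. In both experiments, 6 genes were lower in remofuscin-treated worms (*dpy-18*, *pdi-2*, *dpy-31*, *bli-4*, *bli-3* and *tsp-15*), where 31.1% of all tested genes were, and *phy-2* and *bli-5* were higher, where 29.0% of all tested genes were. The groups did not overlap for 4 of the 10 genes, against 20.4% of all tested genes. Both treated arrays lay below both NC arrays for *dpy-31*, *bli-4* and *tsp-15* and above them for *phy-2*. The sign of *let-268* and *mlt-7* differed between the experiments, and whether the 2 experiments differed in the effect was not tested.

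Both the NC arrays and the treated arrays differed between the experiments. Over the 10 genes the median log2 difference of experiment 2 minus experiment 1 was 0.32 in NC and 0.096 in treated worms. Over all tested genes it was -0.26 and -0.18. The NC arrays differed from each other by more than the groups did for 7 of the 10 genes, and so they did for 80.1% of all tested genes. The NC array of experiment 2 was the highest of the 4 for 6 genes (*dpy-18*, *pdi-2*, *bli-4*, *bli-3*, *mlt-7* and *tsp-15*), against 31.3% of all tested genes. It was the lowest for *let-268* and *bli-5*, against 45.4%. The difference between treated worms and NC was the larger in experiment 2 for 7 genes, all but *dpy-18*, *phy-2* and *dpy-31*. So it was for 9865 of the 14756 tested genes. Without the NC array of experiment 2, the fitted log2 difference changed sign for 5 genes, to 0.13 for *dpy-18*, 0.053 for *pdi-2*, -0.037 for *let-268*, -0.11 for *bli-5* and 0.22 for *mlt-7*. Without the treated array of experiment 1 it changed sign for *dpy-18* alone, to 0.15.

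Several probes were present for *dpy-18*, *pdi-2* and *bli-4*. All 8 probes of *pdi-2* had a negative fitted log2 difference, between -0.30 and -0.066, with 5 of 8 below 0 in experiment 1 and 7 of 8 in experiment 2. Both probes of *dpy-18* were also negative, at -0.24 and -0.14. Of the 5 probes of *bli-4*, 3 were tested and ranged between -0.43 and -0.068, and the other 2, both labelled for transcript c of the gene, were well above background on no array. In experiment 2 the tested *bli-4* probes ranged between -0.71 and 0.14, and whether they differ was not tested. Probes of 1 gene share their RNA and are not replicates.

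**Figure D3:**
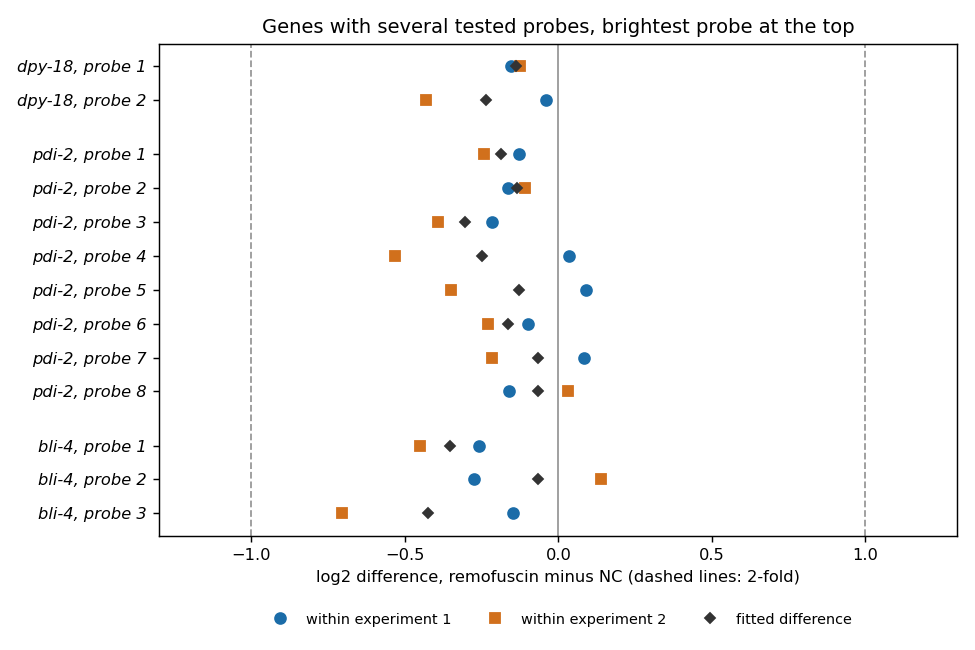
Log2 difference of remofuscin minus NC for each tested probe of *dpy-18* (2 probes), *pdi-2* (8) and *bli-4* (3), ordered by brightness within the gene, with circles for experiment 1, squares for experiment 2, diamonds for the fitted value and dashed lines at 2-fold. The 13 fitted values lie between -0.43 and -0.066.

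Over the 4 arrays, *dpy-18* and *pdi-2* had the most similar pattern of any pair of the 10. The Euclidean distance between their log2 signals, centred on the mean of each gene, was 0.158. Both encode subunits of prolyl 4-hydroxylase, but *phy-2*, for the other alpha subunit, was at 0.850 from *dpy-18* and 0.756 from *pdi-2*. The protease gene *bli-4* was at 0.213 from *pdi-2*. *bli-5* and *bli-3* had the least similar pattern, with a distance of 1.73, the first low and the second high on the NC array of experiment 2. Of the 14733 genes ranked by distance to *bli-3*, the closest were *nlp-76* (0.0523), *tba-7* (0.0592) and *frm-8* (0.0676), with fitted log2 differences of -0.55, -0.55 and -0.50. With 4 arrays such distances describe these libraries alone.

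Other folding and hydroxylation factors of the endoplasmic reticulum were read from a list of genes around these enzymes. Of 14 listed, 13 were tested, 1 was higher past the limits, 0 were lower, 10 had a negative fitted value and the median was -0.16. Over all tested genes, 7359 of 14756 had a negative fitted value. The gene past the limits was *fkb-4*, which encodes a peptidyl-prolyl isomerase of the FK506-binding family. Its signal was 125 and 71.8 in remofuscin-treated worms, against 50.05 and 31.3 in NC, with both treated arrays above both NC arrays. Its fitted log2 difference was 1.26 (SE 0.45), with 1.33 in experiment 1 and 1.20 in experiment 2, but its limma adjusted p was 1.00. With the experiment as a block, the limma adjusted p of *fkb-4* was 0.000126, where 3.72% of all tested genes were higher at an adjusted p under 0.05. That fit has 1 residual degree of freedom per probe and used 1 pooled SE of 0.27. Its p-values thus leave out the spread of each single gene. Leaving out the NC array of experiment 2 gave 0.92 and leaving out the treated array of experiment 1 gave 0.86, both short of the limits. Its relative *fkb-5* had 1707 and 1396 in remofuscin-treated worms, against 1474 and 931 in NC (log2 difference 0.40).

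Among 6 proteases and inhibitors related to those above, 0 were higher and 0 lower past the limits, with a median of -0.19. The largest difference was that of *egl-3*, a proprotein convertase of neurons, at 526 and 888 in remofuscin-treated worms, against 624 and 1382 in NC (log2 difference -0.44). *kpc-1*, another convertase, had 280 and 384 in remofuscin-treated worms, against 323 and 475 in NC (log2 difference -0.26). For both, the NC array of experiment 2 was again the highest of the 4, and without it the log2 differences were 0.13 and 0.021. Without the NC array of experiment 1, *egl-3* was lower past the limits (log2 difference -1.01).

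Of 9 listed peroxidases and partners of the dual oxidase, 6 were tested, with 0 higher and 0 lower past the limits and a median of -0.035. *duox-2*, the close relative of *bli-3*, had 81.5 and 86.4 in remofuscin-treated worms, against 87.0 and 145 in NC (log2 difference -0.42). As for *bli-3*, the difference was small in experiment 1 (-0.094) and larger in experiment 2 (-0.75). Whether RNA of one of these 2 similar genes binds the probe of the other was not tested. The peroxidase gene *skpo-3* had 150 and 193 in remofuscin-treated worms, against 109 and 163 in NC (log2 difference 0.35). The genes *doxa-1*, which encodes the maturation factor of the dual oxidase, *skpo-2* and *hpx-2* were well above background on no array.

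Collagens known as substrates of these enzymes were also on the arrays. Of 8 listed, 6 were tested, 2 were higher past the limits and 0 lower, and the median was 0.78 (0.19 over the 5 that were well above background on all 4 arrays). *rol-6*, a cuticle collagen, had 256 and 231 in remofuscin-treated worms, against 23.5 and 13.7 in NC, a log2 difference of 3.76 (SE 0.42, limma adjusted p = 0.00944). Its NC signals were close to background, at 1.75 and 1.17 times the dimmest probe called well above background, and with normexp background correction the log2 difference was 1.89 (limma adjusted p = 0.140). *dpy-7*, a cuticle collagen of the furrows, had 118 and 111 in remofuscin-treated worms, against 37.7 and 23.6 in NC, a log2 difference of 1.94 (SE 0.41, adjusted p = 0.170). With the experiment as a block, the limma adjusted p of *dpy-7* was 7.23e-11, from the same pooled SE. Both treated arrays stood above both NC arrays for each of these genes, and the differences held within each experiment (3.44 and 4.07 for *rol-6*, 1.64 and 2.23 for *dpy-7*).

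Of the other substrates, *sqt-3*, the known substrate of DPY-31, was named after its values were seen. It had 22.0 and 39.2 in remofuscin-treated worms, against 4.45 and 29.3 in NC, and the NC signal of experiment 1 was not well above background. The groups overlapped, and treated worms were higher within each experiment (log2 differences of 2.31 and 0.42, the first against that dim value). The fitted difference of 1.36 (SE 0.79) was not past the limits, whereas with the experiment as a block it was, with a limma adjusted p of 2.12e-05. That p rests on the pooled SE of 0.27 and leaves out the gap between the 2 differences of *sqt-3*. *emb-9* and *let-2*, the type IV collagens on which LET-268 acts, had log2 differences of 0.0012 and -0.23. These 2 were also named after their values were seen. The difference between the collagens and the enzymes was not tested.

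Markers of the stages and tissues that a plate of worms can hold were read in the same way. The adult hypodermal collagens *col-19* and *col-7* were higher past the limits in remofuscin-treated worms, with a summed signal of 8308 and 7716, against 1523 and 1238 in NC (2 of 3 listed genes tested, limma adjusted p = 0.0359 and 0.0291). The 9 larval moulting genes were all well above background on all 4 arrays, none at 0, with a summed signal of 1397 and 2170 in remofuscin-treated worms, against 1305 and 2527 in NC. Of these, 0 were higher and 0 lower past the limits, and their median was -0.067. For 8 of the 9 the NC array of experiment 2 was the highest of the 4, as it was for 6 of the 10 enzymes.

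All 10 germline and early embryo genes were well above background on all 4 arrays, none at 0, with summed signals of 118925 and 157713 in remofuscin-treated worms, against 121024 and 188236 in NC. All 10 had negative fitted values with a median of -0.13, where 7359 of the 14756 tested genes had negative values, and 0 were past the limits. For 5 of the 10 the sign differed between the experiments, and the median was -0.018 in experiment 1 and -0.32 in experiment 2. For 9 of the 10 the NC array of experiment 2 was the highest. Between the NC arrays, the median log2 difference of experiment 2 minus experiment 1 was 0.81 over the germline genes, 0.78 over the moulting genes, 0.82 over the 3 cross-linking genes, 0.32 over the 10 enzymes and -0.26 over all tested genes. It was 1.32 over 3 genes of body wall muscle, 1.32 for *myo-2* of the pharynx, 0.27 over 4 intestinal genes and 0.092 over 2 neuronal genes. Between the treated arrays it was 0.57 (germline), 0.37 (moulting), 0.22 (cross-linking), 0.98 (muscle), 0.80 (pharynx), 0.20 (intestine) and -0.095 (neurons). Between treated worms and NC, the medians of these markers were 0.27 (muscle), -0.20 (pharynx), 0.079 (intestine) and -0.0076 (neurons), with 0 genes past the limits in either direction. The 3 muscle genes were at 0.91 (*unc-54*), 0.27 (*unc-15*) and 0.042 (*myo-3*). With the experiment as a block, the limma adjusted p of *unc-54* was 0.0181, from the pooled SE, and its change stayed short of 2-fold. The part of worm stage, germline or tissue make-up in the values of the enzymes was not tested.

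**Figure D4:**
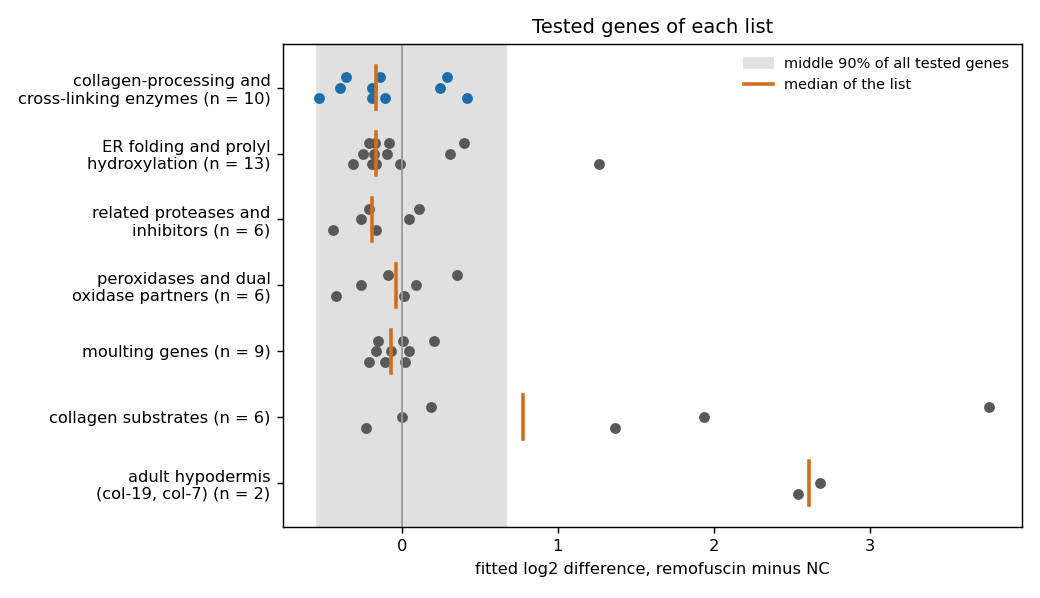
Fitted log2 difference of remofuscin minus NC for the tested genes of each list, 1 point per gene, with a bar at the median and shading over the middle 90% of all tested genes (-0.54 to 0.67). All 10 enzymes lie in the shaded range with a median of -0.16, while *rol-6* (3.76), *dpy-7* (1.94), *col-19* (2.54) and *col-7* (2.68) lie far to its right.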

How the data were processed

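Cy3-labelled cRNA from total RNA of whole worms was hybridised to 4 Agilent 1-colour arrays on 1 slide, and the number of arrays limits the precision. The authors deposited the scanner output as intensity values, corrected for background within each array by Feature Extraction (version 11.5.1.1 in the headers), and a table of log2 values. In that deposited table, 99.91% to 99.97% of all 43603 probes matched the log2 scanner intensity to within 0.01, so that it is not scaled between arrays. The scaling and the test that the study ran in GeneSpring were not used here.

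Control spots and spots that the image software marked as outliers (12 and 38 in remofuscin-treated worms, 8 and 12 in NC) were removed and replicate spots averaged. Each array's log2 intensities were then set relative to their 75th percentile. A probe was tested if it was well above background on 2 or more arrays. The test was limma 3.58.1 (R 4.3.3), with a model of remofuscin minus NC, empirical Bayes moderation and Benjamini-Hochberg adjustment over all tested probes, two-sided. The moderation used a prior standard deviation of 0.42 with 6.23 degrees of freedom. A gene was read from its probe of highest mean signal. The code of the limma fit was run on simulated arrays with known differences, drawn without the pairing by experiment. That run checks the code alone, and its outcome is not used here. Lists were described by counts and medians without a test. The p-values of this fit measure the spread between these arrays. The labels mark 2 sets of arrays by number, read here as experiments, and name no separate pools of worms within them.

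Names came from the identifiers of 34320 probes (78.7%) through a table of the WBcel235 assembly. Array identifiers refer to another build (ce4), so no positions are given. The members and lists were chosen with earlier results of these data known. The text names all 10 genes and, of each list, the genes past the limits (up to 6) or, where fewer than 2 pass, the 2 of largest difference, and for the gene of largest difference the 3 genes of most similar pattern. Python 3.11.15 (matplotlib 3.10.9, scipy 1.17.1, numpy 2.4.6, pandas 2.3.3) was used for tables and figures.

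By the labels, each experiment holds 1 treated and 1 NC array, which pairs them. Over 29060 probes, the deviation of treated arrays and that of NC arrays from the group mean went together (Pearson's r 0.736, Spearman's rho 0.763, a description across probes). Alternatives tried were quantile normalization, median scaling, normexp with an offset of 50 (on median spot signals), the deposited log2 values, no filter on dim probes, a filter asking for all 4 arrays, the mean of a gene's probes, the methods' t-test, the experiment as a block, each array left out in turn and, added after seeing the data, spots with a flag on their local background left out.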

Additional observations from a re-analysis of the deposited data

How the results depend on the processing

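The count of the 10 genes past the limits was 0 higher and 0 lower under all 14 alternatives. With all 4 arrays, 99 of 100 fitted differences kept their sign, and with 1 array left out 34 of 40 did. The filters, the methods' t-test and the experiment as a block leave every fitted difference as it was. So does the mean of probes for a gene with 1 probe. Many of the 100 signs thus could not change. The values that changed sign were *pdi-2* at 0.053 with spots of uneven local background left out, an alternative added after seeing the data, and 6 values with 1 array left out. That *pdi-2* fit lost its NC value of experiment 2, so it repeats the *pdi-2* value without NC replicate 2, counted among the 6. With 1 array left out, the lowest and highest values were -0.42 and 0.15 for *dpy-18*, -0.43 and 0.053 for *pdi-2*, -0.037 and 0.53 for *let-268*, -0.11 and 0.95 for *bli-5*, -0.60 and 0.22 for *mlt-7*, -0.98 and -0.076 for *bli-3*, -1.01 and 0.13 for *egl-3* and -0.54 and 0.021 for *kpc-1*. The sign changed without NC replicate 2 in each but *bli-3*, and for *dpy-18* without remofuscin replicate 1 too (0.15, against 0.13 without NC replicate 2). Such fits give a single array the spread of the other group. Leaving out 1 array gave between 250 and 837 tested genes higher (329 with all arrays, 837 without NC replicate 1) and between 97 and 380 lower (132 with all arrays, 380 without NC replicate 1, 307 without NC replicate 2). The median of all tested genes was then at 0.15 without NC replicate 1. With normexp correction 135 genes were higher and 8 lower, with the methods' t-test 150 and 60, without a filter 296 were lower, and with the filter on all 4 arrays 31. *fkb-4* was at 0.73 and *dpy-7* at 0.97 under normexp, both short of the limits, and *rol-6* at 1.89, past the limits but with a limma adjusted p of 0.140. Short of the limits as well was *fkb-4* by the methods' t-test, which gave *rol-6* an adjusted p of 1.00. The replicate block gave 398 genes higher and 142 lower, and for the 10 genes a smallest limma p of 0.0498 (*bli-3*, adjusted 0.415). The only other unadjusted value under 0.05 with all 4 arrays was that of *dpy-31*, 0.0250 by the methods' t-test. The block brought *sqt-3* past the limits and *fkb-4*, *dpy-7*, *sqt-3* and the muscle gene *unc-54* under an adjusted p of 0.05. It changed no other call among the named genes. Its p-values rest on 1 pooled SE of 0.27 and leave out the spread of each single gene. For *bli-5*, *bli-3*, *mlt-7* and *tsp-15*, signals near background limit the precision further, and the causes of these changes were not tested.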
